A study of Mus musculus with 11 samples.

Results

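Interferon-stimulated genes were compared between tumor-infiltrating and splenic regulatory T cells (Tregs) of mice bearing MC38 tumors. The 41 genes are a list of symbols, drawn up with earlier results of these data known, and 40 of them were listed among the 14604 deposited genes. Gbp6 was the member not listed. They fall into 29 type I genes (4 regulators, 4 cytosolic sensors of nucleic acid and 21 antiviral effectors) and 12 interferon-inducible GTPases (7 guanylate-binding proteins, GBPs, and 5 immunity-related GTPases, IRGs), of which 11 were listed. All 40 listed genes passed the filter on low values.

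Type I interferons bind the IFNAR receptor and act through a complex that includes STAT2 and IRF9 and recognises the interferon-stimulated response element (ISRE) in promoters. Interferon gamma binds the IFNGR receptor, acts on the gamma-activated site (GAS), and induces IRF1, which can also act on the ISRE. The products restrict viruses and intracellular microbes, and GBP and IRG genes are known for their strong response to interferon gamma, a cytokine of activated T and NK cells.

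Sorted cells from 11 libraries were analysed, 6 from spleen and 5 from tumor. MC38 is a mouse colon carcinoma line, implanted in every mouse. Wild-type (WT) mice were CD177flox/flox, with 3 spleen and 3 tumor libraries. Knockout (KO) mice were CD177flox/flox/FOXP3-CreYFP, with 3 spleen and 2 tumor libraries. Both genotypes therefore carried the floxed alleles, and only the KO mice carried Cre, expressed from the Foxp3 gene that marks Tregs, so that deletion was directed to cells that express Foxp3. Cd177 was not analysed here, so the KO labels were not checked against the targeted gene. Tumors were dissociated with enzymes and spleens mechanically, a difference that cannot be told apart from tissue. The labels give neither the age of the mice nor whether a library came from 1 mouse, and p-values measure the spread between these libraries. By the study's methods the spleens were those of the tumor-bearing mice themselves. The labels do not say which libraries share a mouse, and the main tests treated all 11 as unpaired.

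Values are log2(n + 1), where n is the authors' gene-level value from kallisto estimated counts. How n was scaled is not stated, so levels are not ranked between genes, and a value of 1 gene minus another is read only for how it shifts between tissues. The total of n was 712832 to 844331 in spleen and 1103159 to 1304548 in tumor, and a single gene, Gm12896, held 31.4% to 42.45% of it. The study's methods give only an approximate read depth that is the same for all libraries, so the reads behind each library's values are not known. Differences are tumor minus spleen on the log2(n + 1) scale with their standard error (SE), so a difference of 1 is a doubling of n + 1. A gene is said to have passed the test at a Benjamini-Hochberg adjusted p below 0.05 from limma over 13897 genes.

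The sort kept live CD4+GITR+CD25+ cells, a gate that myeloid cells, fibroblasts and CD8 T cells should not pass. Markers of such cells were nevertheless higher in the tumor libraries. The Treg gene Foxp3 and the general T cell gene Cd3e were detected in all 11 libraries, at a mean of 6.35 for Foxp3 in spleen and 5.50 in tumor. All 12 of 12 myeloid markers were higher in tumor, and their summed level was 7.08 to 8.38 in spleen and 13.15 to 13.71 in tumor. Lyz2, a myeloid lysozyme, ran from 12.02 to 12.73 in tumor. All 4 of 4 fibroblast markers tested were also higher, with a summed level of 1.10 to 1.64 in spleen and 8.83 to 9.94 in tumor. Of 5 CD8 T and NK cell markers 3 were higher and 1 lower, summed at 3.92 to 4.95 and 5.72 to 7.55. Of 10 Treg and T cell markers 2 were higher and 6 lower, summed at 11.09 to 11.28 and 10.63 to 11.32. The other lists moved less evenly, with 3 higher and 1 lower of 6 dendritic cell markers, all 3 of 3 tested B cell markers lower, 1 higher and 4 lower of 5 erythroid and platelet markers, and 1 of 2 tested epithelial markers higher. The part of these cells in the results below was not tested. In bulk libraries a change in the number of cells of a type and a change in RNA per cell cannot be told apart.

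The promoters of several members were read first, because they show what the list shares beyond its name. The RefSeq promoter windows on GRCm38.p6 (250 bases before to 50 after a gene's start) held an entry for 30 of the 41 members. The ISRE was searched as GAAANNGAAA and the GAS as TTCNNNGAA, on both strands, with N for any base, and the searches were independent and could overlap. An ISRE was found for 19 of the 30 members (63.3%), against 1131 of 32851 windows of that length (3.44%) and 1079 of 27025 genes with a window (3.99%). A GAS was found for 11 of the 30 (36.7%), against 2726 windows (8.30%) and 9.55% of genes. By role, an ISRE was found in 4 of 4 GBPs, 3 of 4 IRGs, 2 of 2 sensors, 9 of 16 effectors and 1 of 4 regulators. It was found in 15 of 22 genes higher in tumor, 3 of 5 lower and 1 of 3 that did not pass. A match is a string of letters and not evidence of binding.

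The windows below show members with a large difference (Isg15, Rsad2, Bst2, Ifit1 and Gbp2), a member that did not pass (Oas3), a neighbouring pair (Igtp and Irgm2) and the member that fell most (Ddx58). Capitals mark the ISRE, and each sequence runs 5′ to 3′ on the strand of its gene.
Isg15, chr4:156200845-156200926, minus strand: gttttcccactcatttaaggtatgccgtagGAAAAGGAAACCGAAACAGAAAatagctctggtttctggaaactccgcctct
Rsad2, chr12:26456533-26456602, minus strand: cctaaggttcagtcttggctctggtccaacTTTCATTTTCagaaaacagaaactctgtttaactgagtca
Bst2, chr8:71537557-71537632, minus strand: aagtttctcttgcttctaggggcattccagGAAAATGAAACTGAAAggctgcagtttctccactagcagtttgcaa
Ifit1, chr19:34640755-34640843, plus strand: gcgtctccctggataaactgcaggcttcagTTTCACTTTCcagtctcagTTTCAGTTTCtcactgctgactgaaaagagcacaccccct
Gbp2, chr3:142620594-142620623, plus strand: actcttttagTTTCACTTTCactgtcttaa
Igtp, chr11:58199492-58199555, plus strand: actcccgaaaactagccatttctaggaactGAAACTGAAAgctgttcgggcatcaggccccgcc
Irgm2, chr11:58214883-58214952, plus strand: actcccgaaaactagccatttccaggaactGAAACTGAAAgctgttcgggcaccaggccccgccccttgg
Oas3, chr5:120777695-120777764, minus strand: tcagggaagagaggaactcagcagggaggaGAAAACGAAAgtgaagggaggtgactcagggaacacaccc
Ddx58, chr4:40239804-40239833, minus strand: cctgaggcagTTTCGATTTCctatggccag
Isg15 held 3 overlapping matches, the first 78 bases before its start, and Bst2 held 2 overlapping ones. Ifit1 held 2 separate ones. The first match lay 59 bases before the RefSeq start in Gbp2, 34 in Igtp and 64 in Irgm2, and Igtp and Irgm2 shared an identical run of 29 bases around it and each held a GAS just before it. In Ddx58 the match began at base 3 after the start. In the GENCODE M21 annotation Gbp2 starts farther upstream, at chr3:142620602, so that its match lies within the first bases of that gene model.

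In the values as deposited most members were higher in the libraries of tumor-infiltrating Tregs (TI-Tregs), but with equal library totals 15 were higher and 16 lower. At that scaling 3286 of all 13897 genes tested were higher and 7817 lower. As deposited, 27 of the 40 members rose, 8 fell and 5 did not pass, where 43.1% of all genes tested rose and 35.9% fell. The median difference was 0.64, against 0.08 over all genes, and with equal library totals it was 0.07, against -0.43 over all genes. The tumor libraries lay wholly above the spleen libraries for 22 members and wholly below for 6, where 35.2% and 28.4% of all genes did so, and 12 members overlapped. Of the 40, 14 were higher by at least 1 and 1 was lower by at least 1. The share of all genes with differences of that size was not counted, so these counts describe the members alone. Among type I genes 19 rose and 6 fell with a median of 0.54, which was -0.07 with equal library totals, and 9 of the 19 rises kept their call under all scalings tried. Among the GTPases 8 of 11 rose and 2 fell with a median of 0.96, which was 0.35 with equal library totals, and 6 of the 8 rises kept their call.

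**Figure D1:**
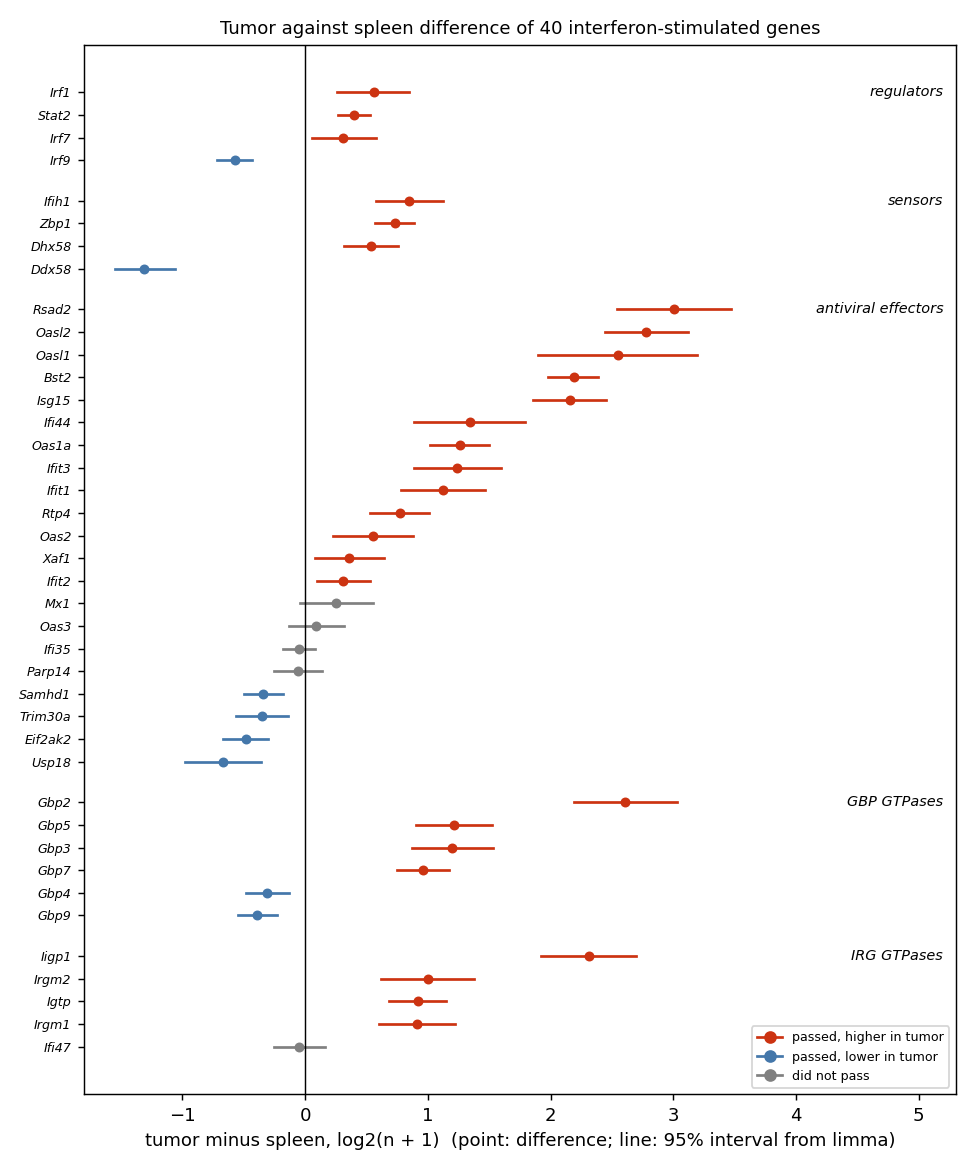
Difference between tumor and spleen for the 40 listed genes by role, in log2(n + 1) on the horizontal axis. Points are differences from 5 tumor and 6 spleen libraries and lines are 95% intervals from limma. Rsad2, Oasl2, Oasl1, Bst2, Isg15, Gbp2 and Iigp1 exceed 2, and Ddx58 is the gene below -1.

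Regulators moved in both directions. Stat2, a subunit of the complex that acts on the ISRE, was 4.31, 4.38 and 4.29 in WT spleen, 4.29, 4.26 and 4.21 in KO spleen, 4.63, 4.63 and 4.79 in WT tumor and 4.72 and 4.67 in KO tumor. The tissues did not overlap, and the difference was small (0.40, SE 0.059, limma adjusted p = 3.62e-05) and turned to -0.20 with equal library totals. Irf9, the DNA-binding subunit of the same complex, went the other way. Its values were 5.97, 5.93, 5.85, 5.93, 5.93 and 6.09 in spleen (WT then KO, as in all such lists here) and 5.29, 5.22, 5.50, 5.43 and 5.44 in tumor. Irf9 was lower in each tumor library than in any spleen library and fell by 0.57 (SE 0.065, limma adjusted p = 3.38e-06).

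Irf1, an early factor of the interferon gamma response, was 7.67, 8.0, 8.15, 7.83, 7.75 and 7.86 in spleen and 7.93, 8.72, 8.71, 8.33 and 8.49 in tumor. Only tumor WT replicate 1 lay inside the spleen range, and the difference of 0.56 (SE 0.14, limma adjusted p = 0.0022) turned to -0.29 after quantile normalization. Irf7, which amplifies type I interferon production, was 5.21, 5.57, 5.72, 5.65, 5.50 and 5.66 in spleen and 5.97, 5.50, 6.14, 6.01 and 5.71 in tumor. The tumor libraries WT replicate 2 and KO replicate 2 lay within the spleen range. The difference of 0.31 (SE 0.12) passed narrowly (limma adjusted p = 0.029) and turned to -0.30 with equal library totals. It no longer passed without spleen WT replicate 1 (adjusted p = 0.061), spleen KO replicate 2 (0.050), tumor WT replicate 1 (0.062), tumor WT replicate 3 (0.082) or tumor KO replicate 1 (0.067).

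The 4 sensors split, with Ifih1, Dhx58 and Zbp1 higher and Ddx58 lower. Ddx58 encodes RIG-I, which detects short viral RNA with 5′ phosphates. Its values were 6.16, 6.29, 6.34, 6.04, 6.13 and 6.49 in spleen and 5.31, 4.71, 4.81, 5.05 and 4.79 in tumor. The tissues were well separated, and Ddx58 fell by 1.31 (SE 0.11, limma adjusted p = 2.39e-07), the largest fall of any member.

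Ifih1 encodes MDA5, the related sensor of long double-stranded RNA. It was 4.43, 4.07, 4.53, 4.58, 4.35 and 4.57 in spleen and 4.85, 5.39, 5.49, 5.30 and 5.33 in tumor, a difference of 0.85 (SE 0.12, limma adjusted p = 2.95e-05). The 2 sensors therefore moved apart within the same libraries. Ifih1 minus Ddx58, a quantity that rescaling a whole library barely moves, was -2.22 to -1.46 in spleen and -0.46 to 0.68 in tumor.

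Zbp1, a sensor of Z-form nucleic acid linked to cell death, was 5.51, 5.51, 5.55, 5.65, 5.43 and 5.46 in spleen and 6.05, 6.12, 6.40, 6.36 and 6.33 in tumor. The tissues did not overlap (difference 0.73, SE 0.075, limma adjusted p = 1.18e-06). Dhx58, which encodes LGP2, a helicase that modulates both RNA sensors, was 3.94, 3.97, 3.84, 3.60, 3.83 and 3.76 in spleen and 4.46, 4.06, 4.56, 4.26 and 4.50 in tumor. It was higher in each tumor library (difference 0.54, SE 0.10, limma adjusted p = 3.09e-04), but turned to -0.049 with equal library totals.

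Among the 21 antiviral effectors 13 rose, 4 fell and 4 did not pass. Rsad2, which encodes viperin, a radical SAM enzyme that blocks viral replication, had the largest difference of any member. It was 2.42, 1.35, 2.11, 1.49, 1.44 and 1.69 in spleen and 4.22, 4.61, 4.80, 5.20 and 4.96 in tumor. The lowest tumor library stood well above the highest spleen library (difference 3.01, SE 0.22, limma adjusted p = 4.04e-08), an 8.04-fold change of n + 1.

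The OAS-like genes followed. Oasl2 was 2.89, 2.55, 2.97, 2.47, 2.48 and 2.93 in spleen and 5.24, 5.38, 5.84, 5.16 and 5.87 in tumor (difference 2.78, SE 0.16, limma adjusted p = 4.34e-09). Oasl1 was 2.27, 2.38, 1.70, 1.71, 1.96 and 2.17 in spleen and 3.26, 4.84, 4.62, 5.37 and 4.79 in tumor (difference 2.55, SE 0.30, limma adjusted p = 4.21e-06). Both were separated by tissue, and Oasl1 varied most among tumor libraries (SD 0.79), with WT replicate 1 lowest.

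Isg15 is the ubiquitin-like modifier of the response and Bst2 encodes tetherin, which holds budding virions at the cell surface. Isg15 was 3.69, 4.19, 4.18, 3.87, 3.47 and 3.96 in spleen and 5.71, 6.07, 6.16, 6.25 and 6.08 in tumor (difference 2.16, SE 0.14, limma adjusted p = 1.27e-08). Bst2 was 5.12, 5.03, 4.79, 4.69, 4.91 and 4.91 in spleen and 6.89, 7.17, 7.31, 6.96 and 7.15 in tumor (difference 2.19, SE 0.093, limma adjusted p = 4.07e-10). Both rose more than 4-fold, 4.46-fold for Isg15 and 4.55-fold for Bst2, with no overlap between tissues.

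Usp18, which removes ISG15 from its targets and dampens IFNAR signalling, went against Isg15. It was 4.08, 4.66, 4.29, 4.09, 4.20 and 4.39 in spleen and 3.24, 3.78, 3.79, 3.37 and 3.90 in tumor. Each tumor library was lower than each spleen library, and Usp18 fell by 0.67 (SE 0.14, limma adjusted p = 7.14e-04). Isg15 minus Usp18 within a library was -0.73 to -0.11 in spleen and 2.18 to 2.88 in tumor.

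The IFIT genes encode proteins that bind foreign RNA, and they rose to unequal extents. Ifit1 had a spleen range of 2.76 to 3.21 and a tumor range of 3.61 to 4.43 (difference 1.12, SE 0.16, limma adjusted p = 2.25e-05), and Ifit3 ranges of 2.48 to 3.23 and 3.66 to 4.53 (difference 1.24, SE 0.16, limma adjusted p = 1.37e-05). Ifit2 was 3.96, 3.99, 3.81, 3.95, 3.86 and 3.81 in spleen and 4.14, 3.87, 4.20, 4.40 and 4.44 in tumor. Tumor WT replicate 2 fell inside the spleen range of Ifit2, and its difference of 0.31 (SE 0.10, limma adjusted p = 0.012) turned to -0.27 with equal library totals.

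The OAS enzymes make an RNA-like messenger that activates RNase L, and their 3 members also differed. Oas1a ran from 3.27 to 3.73 in spleen and from 4.50 to 4.94 in tumor (difference 1.26, SE 0.11, limma adjusted p = 2.95e-07). Oas2 was 2.30, 2.42, 1.83, 2.09, 2.33 and 2.69 in spleen and 2.91, 2.71, 3.12, 2.59 and 2.82 in tumor. Only KO replicate 1 overlapped (difference 0.55, SE 0.15, limma adjusted p = 0.0041).

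Oas3 and Mx1 did not pass. Oas3 was 3.91, 3.81, 3.68, 3.64, 3.69 and 3.97 in spleen and 3.77, 3.64, 4.20, 3.89 and 3.89 in tumor, with a 95% interval of the difference of -0.13 to 0.32. Mx1, a dynamin-like GTPase active against influenza, was 2.43, 2.85, 2.90, 2.85, 2.71 and 2.70 in spleen and 3.05, 2.52, 3.04, 3.30 and 3.06 in tumor, with an interval of -0.04 to 0.55. In Mx1 tumor WT replicate 2 was below most spleen libraries and the other 4 tumor libraries above all of them, and without that library the difference was 0.37 (limma adjusted p = 0.0085).

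The remaining effectors that rose were Ifi44 (difference 1.34), Rtp4 (0.77) and Xaf1 (0.36, and -0.25 with equal library totals). Ifi44 ran from 0.89 to 1.95 in spleen and from 2.03 to 3.03 in tumor, without overlap. Xaf1, a pro-apoptotic partner of XIAP, was 4.60, 4.59, 4.54, 4.75, 4.75 and 4.82 in spleen and 4.98, 4.50, 5.31, 5.18 and 5.22 in tumor (SE 0.13, limma adjusted p = 0.021). Tumor WT replicate 2 lay below the spleen range and the other tumor libraries above it. Xaf1 did not pass without tumor WT replicate 3 (adjusted p = 0.059) or tumor KO replicate 2 (0.053).

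Other effectors fell or did not pass. Eif2ak2, which encodes PKR, the kinase that stops translation on double-stranded RNA, was 4.76, 4.81, 4.81, 4.98, 4.84 and 5.05 in spleen and 4.17, 4.46, 4.56, 4.29 and 4.48 in tumor. It was separated by tissue and fell by 0.48 (SE 0.084, limma adjusted p = 1.55e-04). Trim30a, a ubiquitin ligase of the TRIM family, was 5.61, 5.42, 5.60, 5.73, 5.66 and 5.76 in spleen and 5.06, 5.13, 5.21, 5.51 and 5.49 in tumor, and both KO tumor libraries lay above the lowest spleen library. It fell by 0.35 (SE 0.10, limma adjusted p = 0.0047).

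Samhd1, a dNTP hydrolase that starves reverse transcription, had a spleen range of 8.25 to 8.49 and a tumor range of 7.79 to 8.14 and fell by 0.34 (SE 0.074, limma adjusted p = 9.60e-04). Parp14, an ADP-ribosyltransferase, was 5.86, 5.70, 5.75, 5.73, 5.49 and 5.71 in spleen and 5.37, 5.75, 5.80, 5.54 and 5.78 in tumor. Ifi35 was 5.21, 5.17, 5.07, 5.08, 5.15 and 5.07 in spleen and 5.07, 5.07, 5.23, 5.04 and 4.97 in tumor. Neither passed, with 95% intervals of -0.25 to 0.14 for Parp14 and -0.18 to 0.08 for Ifi35.

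**Figure D2:**
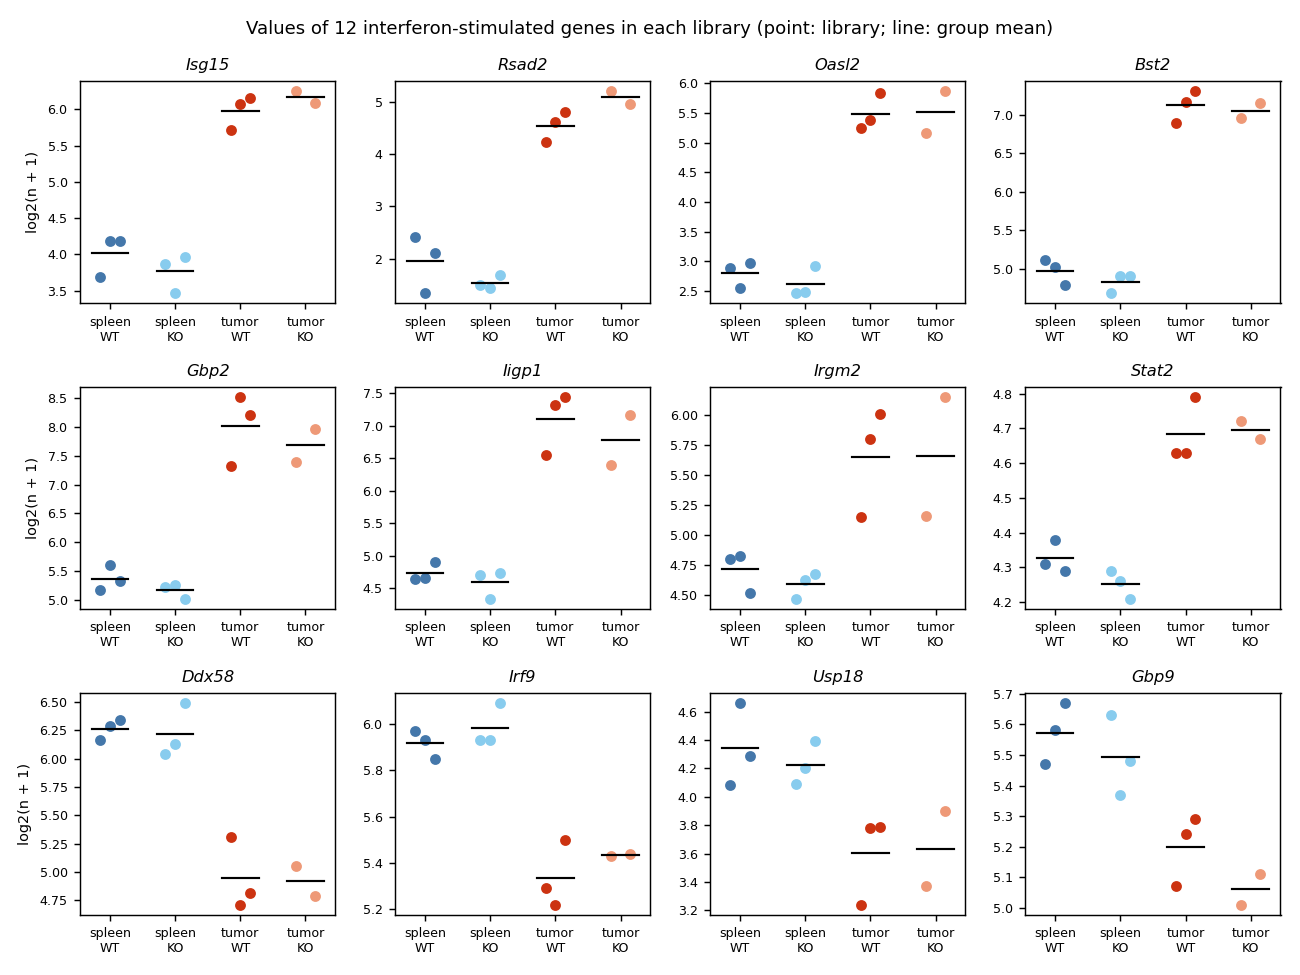
Values of 12 members in log2(n + 1) in each of 11 libraries, by tissue and genotype, with a line at each group mean and a separate vertical scale for each gene that does not start at 0. The panels are all members whose tissues do not overlap, while 12 of the 40 members overlapped. The replicates 1 are the lowest tumor libraries in Gbp2, Iigp1, Irgm2, Gbp9, Bst2, Oasl2 and Usp18.

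The GBPs, large GTPases that coat pathogen vacuoles, split among the listed members into 4 that rose and 2 that fell. Gbp2 was 5.18, 5.61, 5.32, 5.23, 5.26 and 5.02 in spleen and 7.33, 8.52, 8.20, 7.39 and 7.97 in tumor. It was far above spleen in each tumor library (difference 2.61, SE 0.20, limma adjusted p = 5.99e-08), a 6.11-fold change. Gbp5, which also promotes inflammasome assembly, was 4.48, 4.65, 4.66, 4.62, 4.40 and 4.44 in spleen and 5.12, 6.03, 5.95, 5.72 and 5.94 in tumor (difference 1.21, SE 0.14, limma adjusted p = 4.24e-06). Gbp3 was 4.97, 5.48, 5.06, 4.99, 5.21 and 4.59 in spleen and 5.93, 6.52, 6.33, 6.02 and 6.46 in tumor (difference 1.20, SE 0.15, limma adjusted p = 8.11e-06). None of these 3 overlapped, and Gbp7 rose by 0.96 (SE 0.10) with ranges of 5.10 to 5.37 and 5.94 to 6.45.

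Gbp9 and Gbp4 fell in the same libraries. Gbp9 was 5.47, 5.58, 5.67, 5.63, 5.37 and 5.48 in spleen and 5.07, 5.24, 5.29, 5.01 and 5.11 in tumor, lower in each tumor library (fell by 0.39, SE 0.074, limma adjusted p = 3.18e-04). Gbp4 was 5.28, 5.60, 5.60, 5.52, 5.38 and 5.47 in spleen and 5.06, 5.37, 5.15, 5.24 and 5.03 in tumor. The tumor library WT replicate 2 overlapped, and Gbp4 fell by 0.31 (SE 0.081, limma adjusted p = 0.0038). Gbp2 minus Gbp4 was -0.45 to 0.01 in spleen and 2.15 to 3.15 in tumor, so the family shifted apart inside each tumor library. Gbp8, a paralog outside the list of members, fell by 0.64 (SE 0.087, limma adjusted p = 1.86e-05). Of the other paralogs outside it, Gbp10 (-0.35, limma adjusted p = 0.028) and Gbp11 (-0.36, limma adjusted p = 0.012) also fell. Gbp2b (-0.29) did not pass. The balance of rises and falls among GBPs therefore depends on which paralogs are members. Gbp6, the member not listed, matches Gbp10 over 97.4% of its transcript. Gbp4, Gbp8 and Gbp9 overlap in exons on the same strand in the GENCODE M21 annotation (GRCm38), so how kallisto divided their reads is uncertain. With Gbp4 and Gbp9 summed the fall was 0.35 (exact two-sided permutation test over 6 and 5 libraries, p = 0.0043, the smallest it can give).

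The IRGs, smaller GTPases that act on vacuoles of intracellular parasites, rose in 4 of 5 cases. Iigp1, which encodes Irga6, was 4.65, 4.66, 4.90, 4.71, 4.34 and 4.73 in spleen and 6.55, 7.32, 7.44, 6.40 and 7.17 in tumor (difference 2.31, SE 0.18, limma adjusted p = 9.22e-08). Irgm2, a regulatory IRG, was 4.80, 4.83, 4.52, 4.47, 4.63 and 4.68 in spleen and 5.15, 5.80, 6.01, 5.16 and 6.15 in tumor (difference 1.0, SE 0.18, limma adjusted p = 1.77e-04). Igtp, which encodes Irgm3, was 6.15, 6.38, 6.28, 6.09, 6.16 and 6.14 in spleen and 6.78, 7.25, 7.34, 6.88 and 7.33 in tumor (difference 0.92, SE 0.11, limma adjusted p = 4.28e-06). All 3 were separated by tissue, as was Irgm1, the third regulatory IRG, with a difference of 0.91 (SE 0.14, limma adjusted p = 5.68e-05).

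Igtp and Irgm2 share exon sequence on the same strand in the annotation. Summed, they rose by 0.95 (exact two-sided permutation test, p = 0.0043). Ifi47, which encodes Irgd, was the IRG that did not pass. It was 6.58, 6.72, 6.76, 6.64, 6.75 and 6.62 in spleen and 6.29, 6.63, 6.91, 6.56 and 6.77 in tumor, with libraries on both sides and a 95% interval of -0.25 to 0.16.

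Near-identical copies and overlapping genes make further values uncertain. Exons of Irf9, Ifi47, Gbp7, Parp14 and Rtp4 overlap another gene on the same strand in that annotation, and those of Irf1, Irf7, Gbp2, Oasl1, Usp18, Eif2ak2, Dhx58 and Ifi35 a gene on the opposite strand, while whether counting used strand is not stated. Isg15 matches AC151275.1 over 63.8% of its transcript. Oas1a matches Oas1g over 100% and Ifit3 matches Ifit3b over 97.4% of the transcript at 95% identity or more. The summed values rose by 1.43 for Oas1a and Oas1g and by 1.19 for Ifit3 and Ifit3b (exact two-sided permutation tests, p = 0.0043 each). Over single members, 28 of 40 reached that smallest possible p, which a gene does only when its tissues do not overlap. Of all genes 35.2% lay wholly above and 28.4% wholly below in tumor.

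The tumor libraries were not alike for the 2 classes. The median over the 29 type I genes, each set against its spleen mean, was 0.42, 0.34 and 0.74 in WT tumor replicates 1 to 3 and 0.50 and 0.55 in KO tumor. The median over the 11 GTPases was 0.58, 1.15 and 1.28 in WT tumor and 0.68 and 1.19 in KO tumor. The GTPase median was lowest in replicate 1 of both genotypes, and the type I median was lowest in WT replicate 2. For all 8 of the 8 GTPases that rose, the 2 lowest tumor libraries were WT replicate 1 and KO replicate 1, which was so for 5 of the 19 type I genes that rose. The share of all genes with that order was not counted, so the order is not read as particular to the GTPases. Over all genes tested, the deviations of tumor WT and KO replicates 1 from their group means correlated at 0.45. GTPase minus type I was 0.16, 0.81 and 0.54 in WT tumor, 0.18 and 0.64 in KO tumor and -0.17 to 0.08 in spleen. The labels do not say what replicates with the same number share.

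**Figure D3:**
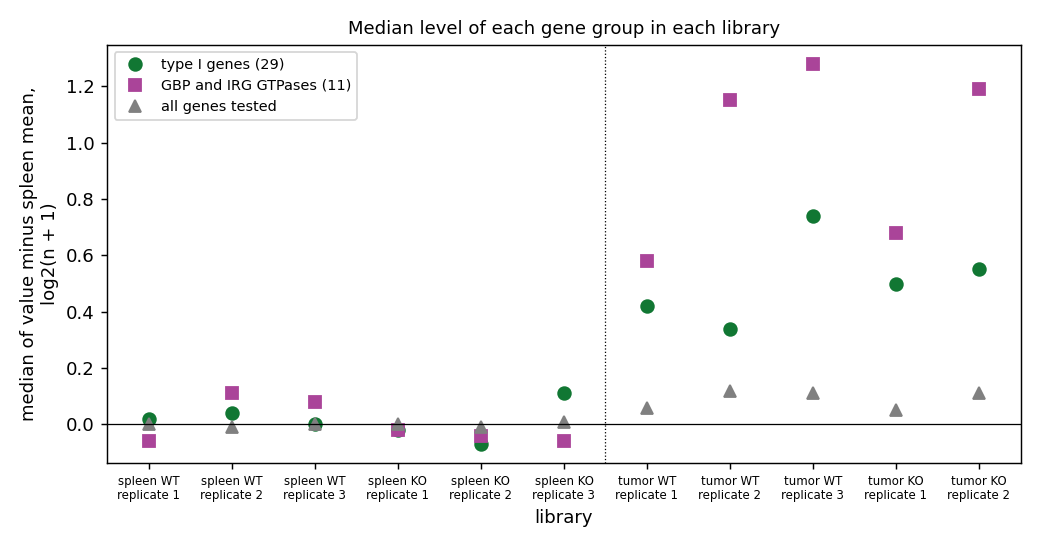
Median over genes of the value minus the gene's spleen mean, in log2(n + 1), for 29 type I genes, 11 GTPases and all genes tested, in each library. All genes stay between -0.01 and 0.12, type I genes reach 0.34 to 0.74 in tumor, and GTPases reach 0.58 and 0.68 in the replicates 1 and 1.15 to 1.28 in the other 3 tumor libraries.

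The gene for interferon gamma itself did not follow the GTPases across tumor libraries. Ifng was 4.03 to 4.86 in spleen and 7.52, 6.18 and 5.58 in WT tumor and 6.36 and 4.88 in KO tumor (difference 1.71, SE 0.36, limma adjusted p = 6.84e-04). It was highest in tumor WT replicate 1, where Gbp2 was lowest. Myeloid markers were summed at 13.15 and 13.33 in the replicates 1 and at 13.54 to 13.71 in the other tumor libraries, the same division as the GTPases. Lyz2 (12.02 and 12.24 against 12.16 to 12.73) and Fcgr1 singly did not divide so. Summed fibroblast markers (9.25 and 8.83 against 9.52 to 9.94) divided the same way, but Col1a1 and Col1a2 singly did not. Summed erythroid and platelet markers (7.96 and 8.41 against 8.97 to 9.26) also did, following Pf4 (7.83 and 8.23 against 8.92 to 9.25). In that list Hbb-bs (3.75 and 4.51 against 1.24 to 3.21), Hba-a1 and Alas2 were instead highest in the replicates 1. The summed Treg and T cell markers went the other way, at 11.32 and 11.21 against 10.63 to 10.89. Foxp3 (5.54 and 5.87 against 4.72 to 6.12), Il2ra, Ikzf2 and Cd3g singly did not divide by replicate 1. The part of any of these in the GTPase values was not tested.

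The wider pathway was read from a list of 29 interferon signalling genes, of which 25 were tested. As deposited 18 were higher and 4 lower with a median of 0.60, where 43.1% of all genes were higher and 35.9% lower. With equal library totals 10 were higher and 9 lower with a median of 0.06, where 3286 of all 13897 genes were higher and 7817 lower. Receptor genes rose, with differences of 0.48 for Ifnar1 (-0.14 with equal library totals), 0.82 for Ifnar2 (0.20 and no longer past the test with equal library totals), 1.44 for Ifngr1 and 1.33 for Ifngr2. The 4 that fell were Jak1 (-0.90) and Tyk2 (-0.21), the kinases of IFNAR, Irf3 (-0.83) and the kinase gene Ikbke (-2.27). Irf5 (2.78), Irf8 (2.66), Tlr3 (2.18) and Tlr9 (2.57), all known from myeloid cells, had the largest rises of that list.

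A list of 62 further interferon-stimulated genes and paralogs, 60 of them tested, had 25 higher, 24 lower and a median of -0.02. With equal library totals 17 were higher and 34 lower, with a median of -0.53. These counts are near the shares of all genes, which were 43.1% higher and 35.9% lower as deposited. With equal library totals 3286 of all 13897 genes were higher and 7817 lower. Cxcl9 (6.21) and Cxcl10 (5.20), chemokines that macrophages make in response to interferon, Ifitm2 (5.47) and Ifitm3 (4.87) rose more than any member. Sp100 (-1.49), Adar (-1.02), Oas1b (-1.38) and Ifit1bl1 (-2.48) fell. Even within a family the paralogs diverged, with Oas1b and Oas1a in opposite directions and Ifi204 (3.48) and Ifi208 (-2.63) likewise.

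The scaling of the libraries changed the sign of 8 small differences, all of them positive as deposited. The median difference over all genes was 0.08 as deposited. It was -0.16 once libraries were quantile normalized, -0.14 once each was centred on its median and -0.43 once their totals were made equal. The share of calls that were higher in tumor over all genes was 54.5% as deposited and 42.1%, 43.7% and 29.6% under those scalings. The median of the members was 0.64 as deposited and 0.34, 0.43 and 0.07 under them, that of the GTPases 0.96, 0.61, 0.74 and 0.35, and that of the type I genes 0.54, 0.15, 0.32 and -0.07. Of the 27 members that rose, 15 kept their call under all scalings tried, namely Isg15, Ifit1, Ifit3, Oas1a, Oasl1, Oasl2, Rsad2, Bst2, Ifi44, Gbp2, Gbp3, Gbp5, Gbp7, Igtp and Iigp1. Stat2, Irf1, Irf7, Dhx58, Ifit2 and Xaf1 turned lower under at least 1 scaling, so no regulator kept a rise. Ifih1, Zbp1, Oas2, Rtp4, Irgm1 and Irgm2 stayed above 0 but did not pass under at least 1 scaling. Mx1 and Oas3, which had not passed, also changed sign. All 8 falls kept their call, and Parp14, Ifi35 and Ifi47 also became calls for lower under each.

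**Figure D4:**
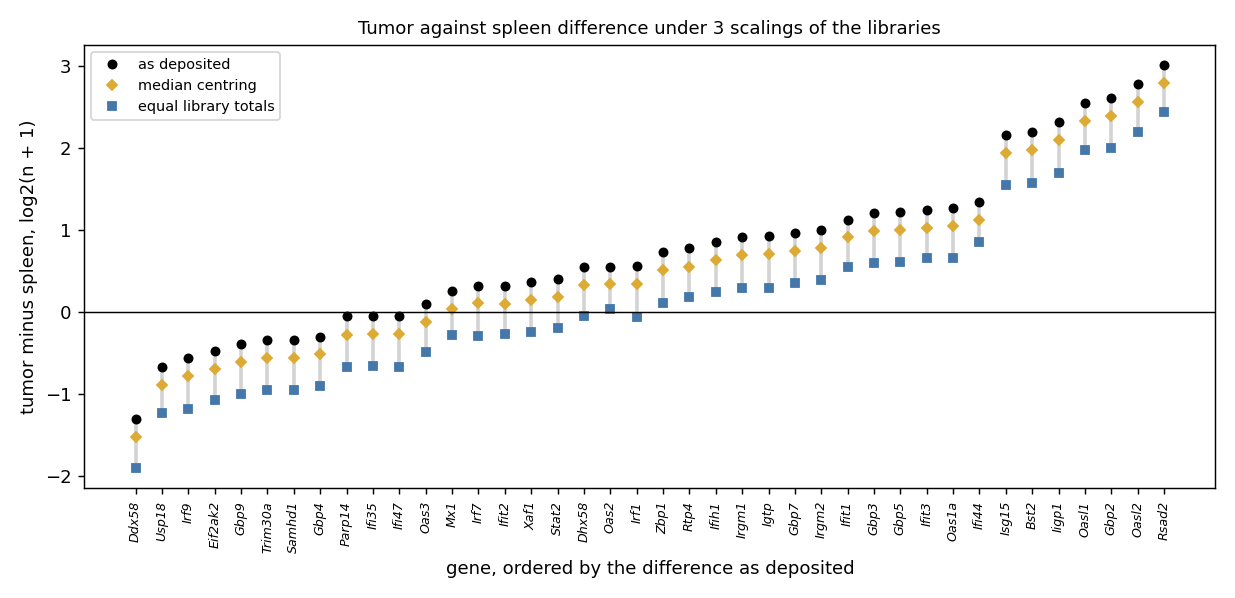
Tumor minus spleen difference in log2(n + 1) of 40 members, ordered by the difference as deposited, under 3 scalings joined by a grey line. Equal library totals move every gene down by a like amount, so that Stat2, Irf1, Irf7, Dhx58, Ifit2, Mx1, Oas3 and Xaf1 cross 0, while Isg15 (1.54) and the 6 genes to its right stay well above it and Ddx58 stays lowest.

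Both genotypes showed the tissue difference. In WT mice 24 members rose and 8 fell, where 39.2% of all genes rose and 31.3% fell. In KO mice, with 2 tumor libraries, 24 rose and 5 fell, against 36.2% and 29.5% of all genes. In all, 23 members rose in both genotypes and 5 fell in both, and the share of all genes that did so was not counted. All 35 members that passed with genotypes pooled had the same sign in WT and KO mice. They were chosen by the pooled test on these same libraries, which makes a shared sign likely, so this is no separate evidence. The median difference was 0.70 in WT and 0.69 in KO mice.

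Whether the tissue difference itself depended on genotype was tested as an interaction. Because only the KO mice carried Cre, loss of CD177 and presence of Cre cannot be told apart. No member passed in limma, and 0% of all genes did. At an unadjusted p under 0.05 there were 2 members, Ifit2 and Rsad2, where 2.76% of all genes lay under it. Rsad2 differed between tissues by 2.58 (SE 0.25) in WT and 3.54 (SE 0.28) in KO mice, and Oasl1 by 2.13 (SE 0.37) and 3.13 (SE 0.41). The 95% intervals of the difference between genotypes were 0.12 to 1.79 for Rsad2, -0.22 to 2.24 for Oasl1, -0.16 to 1.03 for Isg15 and -1.02 to 0.75 for Gbp2.

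KO and WT were also compared within a tissue. In spleen no member passed in limma, none was under 0.05 unadjusted (2.02% of all genes were), and 0% of all genes passed. Member differences, KO minus WT, ran from -0.42 to 0.20. In tumor no member passed, the smallest adjusted p was 0.74, and 0.00720% of all genes passed, which is 1 gene. The members under 0.05 unadjusted were Ifit1 (0.50, 95% interval 0.04 to 0.96), Ifit2 (0.35, 0.076 to 0.63) and Trim30a (0.37, 0.17 to 0.58), all higher in KO tumors, where 4.56% of all genes were under it. Trim30a was 5.06, 5.13 and 5.21 in WT tumor and 5.51 and 5.49 in KO tumor, and these libraries did not overlap. Cell markers differed between the same libraries: of 47 tested 6 were under 0.05 unadjusted, none passed after adjustment, and the smallest adjusted p in limma was 0.56. Foxp3 (0.83), Il2ra (0.56) and Ikzf2 (0.63) were higher and Cd8a (-1.06), Cd8b1 (-1.12) and Prf1 (-1.14) lower in KO tumors, and CD8 T and NK markers summed to 7.24 to 7.55 in WT and to 6.88 and 5.72 in KO tumor. Their part in the member differences was not tested.

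**Figure D5:**
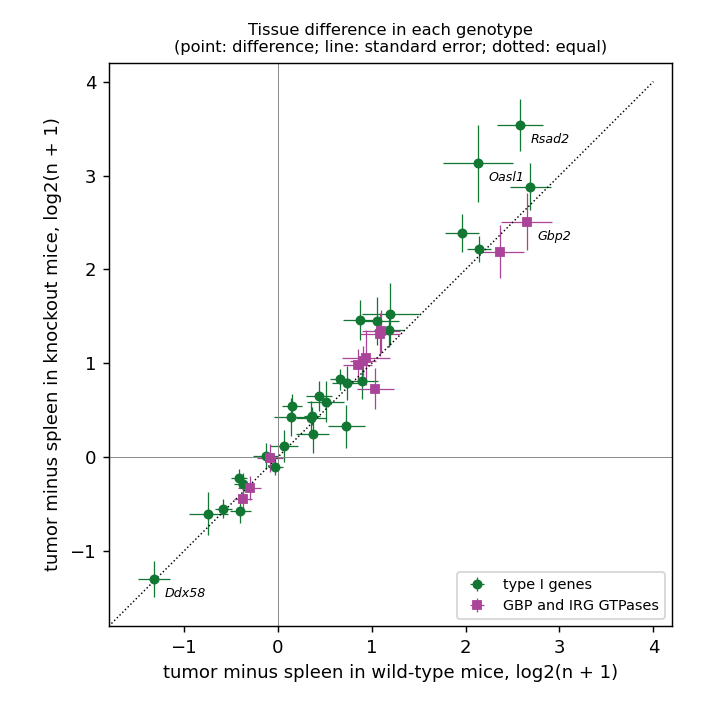
Tumor minus spleen difference of 40 members in WT mice (horizontal axis) and KO mice (vertical axis), both in log2(n + 1), with standard errors from limma and a dotted line of equal differences. Most members lie along the line, and Rsad2 (2.58 and 3.54) and Oasl1 (2.13 and 3.13) lie above it without passing the interaction test.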

How the data were processed

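RNA of Tregs sorted from tumor and spleen was depleted of ribosomal RNA and sequenced in single-end reads. The authors pseudoaligned reads to mm10 with kallisto, processed estimated counts with sleuth 0.30.0, aggregated them by gene symbol and deposited log2(n + 1) values for 14604 genes in 11 libraries. The kallisto version, annotation release and scaling of n: not given in the sources used here. The study states an approximate depth for all libraries alike, but the values cannot be turned back into reads of each library, so no count model was fitted and no counting interval is given.

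The deposited log2 values were used without further normalization. Genes with a mean of at least 0.5 were kept (13897). limma 3.58.1 in R 4.3.3 (lmFit, then eBayes with its trend option) set 5 tumor against 6 spleen libraries, and a model with 1 mean per tissue and genotype gave the genotype contrasts. A gene passed at p below 0.05 after Benjamini-Hochberg adjustment over all genes tested. The fit was tested on simulated data. Single values were compared by exact two-sided permutation (scipy 1.17.1). Scalings, pseudocounts of 0.1 and 5, filters, a replicate block, a genotype covariate and leaving out each library were tried as alternatives. Equal totals without Gm12896 was chosen after seeing the data. Transcript copies were found with BLAST 2.17.0, and promoters came from RefSeq (GRCm38.p6) and gene models from GENCODE M21.

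The members and the gene and marker lists were chosen with earlier results of these data known. Values in every library were given for the 3 largest differences in each direction of each role group and for each member whose tissues overlapped. Summed marker levels are log2 of the summed n plus 1.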

Additional observations from a re-analysis of the deposited data

Results flagged for a closer look

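Each of the 40 listed members and the medians of both classes were examined in each tissue for a library far from the others (Dixon's ratio at 95%). Of these 84 groups 2 stood out, where chance gives about 1 in 20, or 4.2. Samhd1 in tumor was lowest in WT replicate 1 at 7.79, with the other tumor libraries at 8.05 to 8.14. Irgm1 in spleen was highest in KO replicate 3 at 5.74, with the others at 5.53 to 5.56.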

How the results depend on the processing

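With genotypes pooled, 23 of the 40 single members kept their sign and call in every alternative that gave them a value (22, or 21 for Ifi44, which the stricter filter removed). With equal library totals 15 members rose and 16 fell, and with Gm12896 left out of the totals 16 and 15. Of all 13897 genes tested 3286 rose and 7817 fell with equal totals, and 3421 and 7952 without Gm12896. In WT mice 10 members rose and 14 fell under both. In KO mice 13 rose under equal totals, and 13 and 12 fell, with 11 under quantile normalization and 9 under median centring. These settings shift all genes down together. With equal totals the difference turned to -0.20 for Stat2, -0.070 for Irf1, -0.30 for Irf7, -0.049 for Dhx58, -0.27 for Ifit2, -0.28 for Mx1, -0.49 for Oas3 and -0.25 for Xaf1. Without Gm12896 in the totals these were -0.19, -0.066, -0.30, -0.045, -0.27, -0.27, -0.48 and -0.24. Quantile normalization gave -0.29 for Irf1, -0.017 for Irf7 and -0.13 for Oas3, and median centring -0.13 for Oas3. Leaving out 1 library gave 25 to 28 higher and 8 lower with genotypes pooled, 22 to 25 and 7 to 8 in WT mice, and 21 to 26 and 4 to 7 in KO mice. Over those fits Parp14 ran from -0.10 to 0.010 and Ifi47 from -0.12 to 0.038, both highest without tumor WT replicate 1. The cause was not tested.

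Same-numbered libraries of tumor and spleen did not deviate together (r -0.13 to 0.04 in 5 pairs). Tumor WT and KO replicates 1 correlated at 0.45 and replicates 2 at 0.28, but WT replicate 3 and KO replicate 2 at 0.29. In spleen, same-numbered WT and KO libraries gave -0.19 to 0.04. With 2 KO tumor libraries the deviations from their mean mirror each other. The tumor values are therefore not independent and cannot show whether same-numbered libraries share anything. A replicate block left the counts at 27 and 8 pooled, 24 and 8 in WT and 24 and 5 in KO mice. The unstated scaling of n limits the small rises, and no counting error could be given.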
